A study of Mus musculus with 6 samples.

Results

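Histone genes were taken as every row of the deposited count table whose symbol marks a linker histone (H1f), a clustered core histone (H2ac, H2bc, H3c or H4c), a histone H2A.Z (H2az) or a histone H3.3 (H3f3). This rule found 72 genes in a table that holds 26916 others, 64 of them replication-dependent genes and 8 of them replacement histones (H3f3a, H3f3b, H3f3c, H2az1, H2az2, H1f0, H1f8 and H1f10). H2ax was not analysed here. RNA was sequenced from C57BL/6 mouse cells labelled as stromal cells of the bone marrow, in 3 libraries labelled Hes1KO and 3 labelled Wildtype (WT). Mice with a floxed allele of Hes1, which encodes a repressor induced by Notch signalling, were crossed with Prx1Cre mice, where Cre expression begins in mesenchyme of the early limb bud and part of the face and skull. The protocols name heterozygous Hes1fl/+ mice for all samples, so how many alleles were deleted in the Hes1KO group remains unstated, as do the animals' age and whether each library had an animal of its own. The p-values therefore measure the spread between these libraries, which may be technical.

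Replication-dependent histone genes lie in clusters, are transcribed mainly in S phase and supply the bulk of the histones that package newly copied DNA. Their mRNAs have no introns in the usual case and no poly(A) tail, ending in a stem-loop that is bound by the protein Slbp. Replacement histones such as H3.3 and H2A.Z come from single genes with introns and polyadenylated mRNAs, are made through the whole cell cycle and are put into chromatin outside replication. The library kit captures RNA by its poly(A) tail, so mRNAs that end in the stem-loop are selected against.

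The libraries differed widely. The Hes1KO libraries held 20563116 to 22131465 counts, WT replicate 2 held 5812598 and WT replicate 3 held 12109170, while WT replicate 1 held 66167 and was kept apart. Hes1 stood at 6.62, 9.86 and 10.0 CPM (counts relative to the library's total, here scaled by TMM factors) in the Hes1KO libraries, 39.1 in WT replicate 2 and 64.1 in WT replicate 3, and WT replicate 1 had 0 counts of it. Hes1 fell in the Hes1KO group, with a log2 fold change of -2.55 ± 0.31 (SE; edgeR, Benjamini-Hochberg adjusted p = 0.0297). Markers of the labelled cell type were scarce: the 7 stromal markers summed to 12.1 to 21.4 CPM in the Hes1KO libraries, 26.5 in WT replicate 2 and 8.54 in WT replicate 3. Prrx1, the gene whose promoter drives the Cre, had at most 2 counts in any library and 0 in 3 of the 6. Blood markers were far more abundant, with 7 neutrophil markers at 29760 to 95110 CPM in the Hes1KO libraries and 8 erythroid markers at 954200 CPM in WT replicate 3 on the same scale (424300 CPM by library size alone). The TMM factor of WT replicate 3, 0.445, raises all its levels relative to library size, so its rank beside the Hes1KO libraries can turn with the scaling. For most orders named below that were seen to turn, library size alone is given too. In these bulk samples, fewer cells of a type and less RNA per cell cannot be told apart.

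The feature that names the replication-dependent class was looked for in the GENCODE M21 mouse transcripts. A stem-loop was counted where 6 bases beginning GG paired fully with the 6 bases after a loop of 4 bases beginning TTT. It was found in 41 of the 63 replication-dependent genes that have a transcript there (65.1%), in 0 of 7 replacement histones and in 68 of 21901 protein-coding genes (0.311%). Some transcripts without a match are short. Those of H2bc15 and H2ac15 hold 381 and 393 bases, while the genes span 478 and 536 bases in RefSeq. A stem-loop past the end of such a transcript would be missed. The ends of genes whose levels are described below are shown, with the stem-loop in capitals and up to 5 bases on each side.
H1f3: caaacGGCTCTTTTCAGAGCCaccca
H2bc8: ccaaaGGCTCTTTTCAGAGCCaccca
H3c7: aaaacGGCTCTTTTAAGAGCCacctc
H4c4: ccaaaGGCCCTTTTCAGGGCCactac
H1f2: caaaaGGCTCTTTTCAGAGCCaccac
H2bc22: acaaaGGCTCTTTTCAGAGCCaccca
H2ac23: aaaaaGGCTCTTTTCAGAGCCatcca
H2ac24: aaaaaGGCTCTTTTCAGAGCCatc
H4c9: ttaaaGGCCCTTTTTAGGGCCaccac
The commonest form, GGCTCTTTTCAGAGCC, stood in 24 genes of the H1, H2A, H2B and H3 families and in 0 H4 genes. The H4 genes carried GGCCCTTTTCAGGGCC (6 genes), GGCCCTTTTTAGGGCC (2) or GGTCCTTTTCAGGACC (2), in which other letters make the same kind of paired stem. Among the genes that behaved differently in these libraries, described below, H2ac23, H2ac24, H1f2 and H2bc22 have the commonest form. H4c9 has one of the H4 forms, and no stem-loop was found for H2bc21 and H2bc4.

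Promoters were read from RefSeq (GRCm38.p6), as the 250 bases before each gene's start, and are shown for an H1, an H2B and an H4 gene that were among the most counted members. The letters searched for, on both strands and marked in capitals, were those of the TATA box (TATAAA), of the CCAAT box, which reads ATTGG on the other strand, and the first 7 letters of the octamer (ATTTGCA).
H1f1, chr13:23763418-23763667, + strand: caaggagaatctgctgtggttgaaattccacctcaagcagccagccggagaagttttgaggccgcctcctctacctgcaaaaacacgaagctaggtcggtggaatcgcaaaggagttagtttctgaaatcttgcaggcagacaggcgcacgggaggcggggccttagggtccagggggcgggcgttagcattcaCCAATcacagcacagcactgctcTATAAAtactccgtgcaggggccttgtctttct
H2bc8, chr13:23571150-23571399, + strand: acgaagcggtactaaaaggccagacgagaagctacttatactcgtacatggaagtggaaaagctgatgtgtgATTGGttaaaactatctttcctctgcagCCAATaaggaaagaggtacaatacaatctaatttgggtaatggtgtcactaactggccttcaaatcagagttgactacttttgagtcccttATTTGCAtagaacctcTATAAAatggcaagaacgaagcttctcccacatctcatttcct
H4c4, chr13:23581318-23581567, + strand: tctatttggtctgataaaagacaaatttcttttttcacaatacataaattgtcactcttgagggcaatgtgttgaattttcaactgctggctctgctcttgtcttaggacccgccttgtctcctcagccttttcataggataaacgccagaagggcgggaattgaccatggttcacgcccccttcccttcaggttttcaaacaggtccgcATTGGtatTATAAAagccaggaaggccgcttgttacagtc
Of the 58 replication-dependent genes with a promoter in that table, 28 held TATAAA (48.3%, against 12.4% of all 32851 promoters), 48 held CCAAT (82.8%, against 33.9%) and 12 held ATTTGCA (20.7%, against 3.57%). CCAAT stood in all 6 H1, 17 H2A and 14 H2B promoters, in 8 of 10 H3 promoters and in 3 of 11 H4 promoters. ATTTGCA stood in 6 of 17 H2A and 6 of 14 H2B promoters and in none of the H1, H3 and H4 promoters. Of the 8 replacement histones 1 held TATAAA, 5 held CCAAT and 1 held ATTTGCA. A match is a description of these letters and not a tested site.

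Within each library, the counts of the 2 classes were set against each other first, since such a share does not depend on how libraries are scaled. Replication-dependent genes held 17.7% of all histone counts in Hes1KO replicate 1 (95% Wilson interval 17.29 to 18.01%), 16.4% in Hes1KO replicate 2 (16.02 to 16.73%) and 22.6% in Hes1KO replicate 3 (22.14 to 22.97%). The share was 82.6% in WT replicate 2 (82.21 to 82.95%), 12.95% in WT replicate 3 (12.33 to 13.6%) and 15.5% in WT replicate 1 (10.1 to 22.9%), which held only 123 histone counts. One library, WT replicate 2, thus stood on the other side of an even split from all 5 others, and WT replicates 1 and 3 lay below the Hes1KO shares, WT replicate 1 by less than its interval. The intervals cover counting error only, as reads are not independent molecules. As a log2 ratio of replication-dependent over replacement counts, the Hes1KO libraries lay at -2.22, -2.35 and -1.78, WT replicate 2 at 2.25, WT replicate 3 at -2.75 and WT replicate 1 at -2.45.

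**Figure D1:**
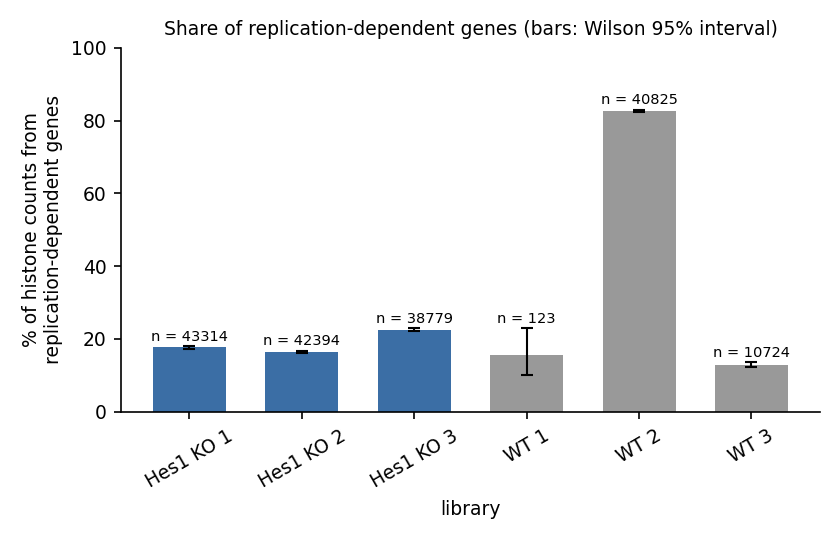
Bars give the percentage of all histone counts that came from replication-dependent genes in each of the 6 libraries, with 95% Wilson intervals and the number of histone counts above each bar. WT replicate 2 reaches 82.6%, and the other 5 libraries lie between 12.95% and 22.6%.

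The summed levels show which class moved. Replication-dependent genes summed to 273.6, 311 and 343.5 CPM in the 3 Hes1KO libraries, to 4249 CPM in WT replicate 2 and to 258 CPM in WT replicate 3. WT replicate 2 was 13.7 times the Hes1KO mean (309 ± 35.0 CPM, SD, n = 3), whereas WT replicate 3 was 0.834 times that mean. Replacement histones summed to 1277, 1589 and 1179 CPM in the Hes1KO libraries, 896 in WT replicate 2 and 1734 in WT replicate 3. Here WT replicate 2 was the lowest library on this scale, at 0.665 times the Hes1KO mean (1348 ± 214 CPM, SD, n = 3). By library size alone the replacement sum was 1460 to 1675 CPM in the Hes1KO libraries, 1223 in WT replicate 2 and 771 in WT replicate 3, which was then the lowest. In WT replicate 1 the 8 replacement histones had 104 counts, 103 of them from H3f3b, and the 64 replication-dependent genes had 19.

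Gene by gene, 60 of the 64 replication-dependent genes and 7 of the 8 replacement histones had enough counts to be tested in the 5 libraries other than WT replicate 1. WT replicate 2 was the highest library for 56 of the 60 (93.3%, against 27.7% of all 16190 tested genes), and it was at least 4-fold above each other library for 48 of them (80%, against 3.77% of all tested genes). Of the 7 replacement histones, WT replicate 2 was the highest library for 0 on the TMM scale. By library size alone it was the highest for 2 of the 7 (28.6%, against 42.5% of all tested genes) and still for 56 of the 60. With CPM scaled by library size alone, the same 4-fold excess was met by 53 of the 60 (88.3%, against 7.01% of all tested genes) and by 0 of the 7 replacement histones. The median replication-dependent gene stood at 1.90, 2.20 and 3.67 CPM in the Hes1KO libraries, 50.9 in WT replicate 2 and 1.49 in WT replicate 3. The 5 other members were too low to test: H3c14 (0 to 29 counts in a library), H1f6 (0 to 15), H1f8 (0 to 3), H2bc1 (0 to 3) and H2ac1 (0 to 2).

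**Figure D2:**
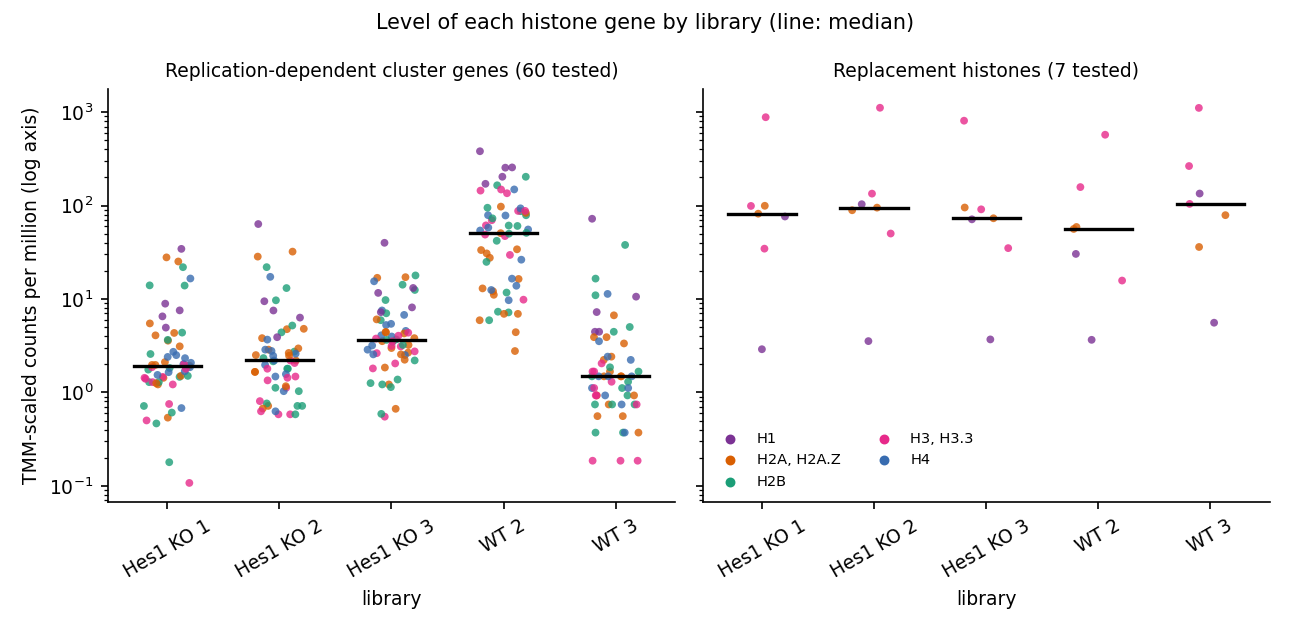
Each point is a tested histone gene in 1 library, as TMM-scaled CPM on a log axis and coloured by family, with replication-dependent genes on the left, replacement histones on the right and a line at the median. The replication-dependent median is 50.9 CPM in WT replicate 2 and 1.49 to 3.67 CPM in the other 4 libraries, while the replacement medians lie between 56.2 and 104 CPM.

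In the test of Hes1KO against WT over these 5 libraries, 4 histone genes passed, all of them replication-dependent. H2ac23 and H2ac24, which encode H2A, rose, and H2bc22 and H2bc4, which encode H2B, fell. Over all genes tested 15.5% passed, 7.5% rising and 8.04% falling, a larger share than among the histone genes. The remaining replication-dependent genes did not pass, although 56 of the 60 had a fold change below 0. The median log2 fold change of the 60, Hes1KO over WT, was -3.38, against 0.02 for all genes tested. An unadjusted p under 0.05 was found for 46 of the 60 and for 6441 of all 16190 genes tested. The 7 replacement histones had a median of 0.02, with 4 above 0 and 3 below. All 4 calls were lost when any 1 of the Hes1KO libraries was left out, where 0% of all genes passed, and with library size alone. With WT replicate 1 in the fit, 0 histone genes and 0% of the 14756 genes tested passed, and the replication-dependent median was -3.02. In that fit 29 of 60 replication-dependent genes and 2219 of all genes tested had an unadjusted p under 0.05. DESeq2 on the 6 libraries called 9 histone genes and 5.37% of all genes, and on the 5 libraries 46 histone genes (2 higher, 44 lower) and 30.9% of all genes.

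These fold changes rest on which WT library is used. With WT replicate 3 as the only WT library, 50 of the 60 replication-dependent genes were higher in Hes1KO and their median log2 fold change was 0.70. With WT replicate 2 as the only one, 58 of 62 were lower and the median was -4.17. In the first of these fits 8 histone genes passed (28.9% of all genes did), and in the second 63, of which 5 rose and 58 fell (35.5% of all genes passed). A lone WT library is assumed there to vary like the Hes1KO libraries. The 4 genes that passed with both WT libraries passed in each of these fits, in the same direction.

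**Figure D3:**
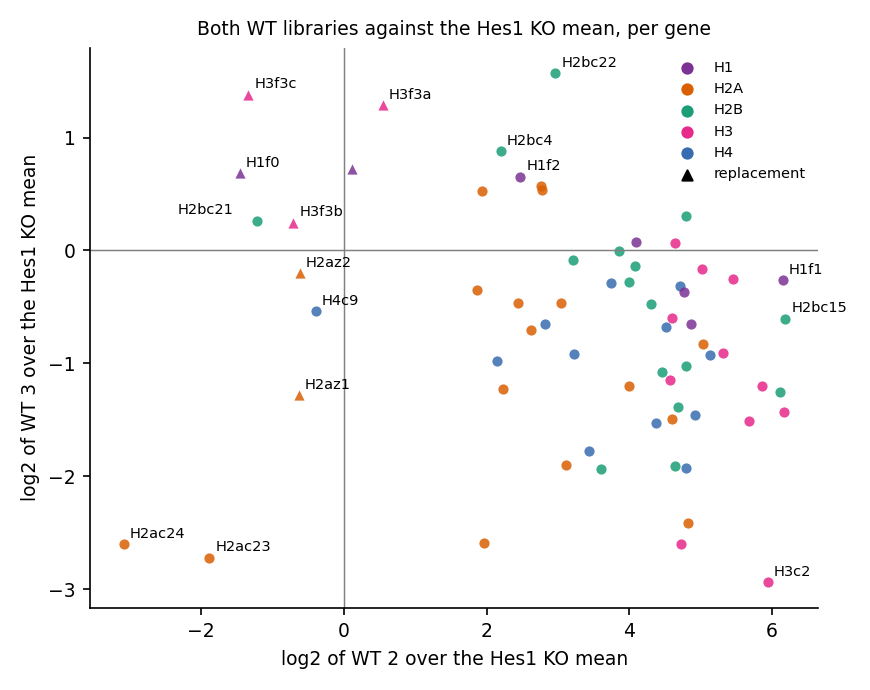
Each point is a tested histone gene, placed by the log2 ratio of WT replicate 2 (horizontal) and of WT replicate 3 (vertical) to the mean of the 3 Hes1KO libraries; circles are replication-dependent genes and triangles replacement histones, coloured by family. Most circles lie far to the right with a median of 4.34, and below or near 0 on the vertical axis with a median of -0.69; H2ac23 and H2ac24 lie at the lower left.

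Linker histones of the H1 class, which bind the DNA between nucleosomes, were among the most counted replication-dependent genes. H1f1 stood at 4.94, 3.9 and 7.23 CPM in the Hes1KO libraries, 381.5 in WT replicate 2 and 4.46 in WT replicate 3. Its log2 fold change was -5.17 (SE 1.49, edgeR, Benjamini-Hochberg adjusted p = 0.0655), which missed the threshold of 0.05, and the Hes1KO libraries lay around the level of WT replicate 3 (above its 1.98 CPM by library size alone, at 4.11 to 8.95). H1f3 stood at 8.91, 7.53 and 11.6 CPM, then 256 and 7.24 in WT replicates 2 and 3. H1f5 stood at 6.51, 6.32 and 8.13 CPM, then 203.5 and 4.46. H1f4 stood at 7.55, 9.46 and 13.1 CPM, then 170.9 and 10.6. In H1f3, H1f4 and H1f5 too, WT replicate 2 alone was high, and their adjusted p were 0.0777, 0.0759 and 0.0815 (edgeR with Benjamini-Hochberg adjustment).

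H1f2 differed from these in degree. It stood at 34.4, 63.4 and 39.9 CPM in the Hes1KO libraries, 254 in WT replicate 2 and 72.3 in WT replicate 3, so that on this scale every Hes1KO library was below both WT libraries. By library size alone WT replicate 3, at 32.1 CPM, was below the Hes1KO libraries (43.4 to 66.8). Its log2 fold change of -1.83 had an SE of 0.55 and did not pass (edgeR, Benjamini-Hochberg adjusted p = 0.0705). H1f2 was the most counted replication-dependent gene in all 3 Hes1KO libraries, with 11.6 to 20.4% of the class's counts, and in WT replicate 3, with 28.0%; in WT replicate 2 it held 5.99% and H1f1 led with 8.98%. The GENCODE transcript of H1f2 runs 840 bases past its stem-loop, and those of H1f3 and H1f4 run 4884 and 1153 bases past theirs. Summed over the family, H1 stood at 62.4, 90.7 and 80.2 CPM in the Hes1KO libraries, 1268 in WT replicate 2 and 99.4 in WT replicate 3 (44.2 by library size alone, below the Hes1KO libraries).

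The H2A genes, whose protein pairs with H2B in the nucleosome, had the smallest excess of WT replicate 2 over the Hes1KO mean of the 5 families, 5.02-fold in sum. Over WT replicate 3 the excess was 13.4-fold, more than for H1 (12.8) or H2B (11.9). Their sum was 87.7, 95.5 and 77.9 CPM in the Hes1KO libraries, 437 in WT replicate 2 and 32.7 in WT replicate 3. Of the 16 tested H2A genes, 10 were at least 4-fold higher in WT replicate 2 than in each other library, and their median log2 ratio of WT replicate 2 to the Hes1KO mean was 2.70. H2ac15, named after its values were seen and the H2A gene with the highest such ratio (5.04), stood at 2.11, 2.51 and 4.28 CPM in the Hes1KO libraries, 97.4 in WT replicate 2 and 1.67 in WT replicate 3.

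H2ac23 and H2ac24 went the other way. H2ac23 stood at 27.9, 32.1 and 16.9 CPM in the Hes1KO libraries, 6.93 in WT replicate 2 and 3.90 in WT replicate 3. It rose in Hes1KO by 2.24 in log2 units (SE 0.42; edgeR, Benjamini-Hochberg adjusted p = 0.0332). H2ac24 stood at 25.2, 28.4 and 17.1 CPM, against 2.77 and 3.90 in the WT libraries, and rose by 2.82 (SE 0.35; edgeR, Benjamini-Hochberg adjusted p = 0.0297). In both genes every Hes1KO library lay above both WT libraries, and Hes1KO replicate 3 was the lowest of the Hes1KO libraries. The pair took 19.4, 19.5 and 9.89% of the replication-dependent counts in the Hes1KO libraries, 0.228% in WT replicate 2 and 3.02% in WT replicate 3. With WT replicate 1 included, neither passed (log2 fold change 1.71 and adjusted p = 0.319 for H2ac23, 2.93 and 0.306 for H2ac24, edgeR with Benjamini-Hochberg adjustment).

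The counts of these genes are uncertain. In the GENCODE transcripts, 93.5% of the 50-base windows of H2ac23 and 93.1% of those of H2ac24 are shared with other genes, and each overlaps 1 gene on the other strand. How reads that map to several places were counted, and whether strand was used, remains unstated in the sources. With no strand in the counting, reads of the overlapping genes cannot be told apart. Across the whole class, the 32 tested genes with over 50% of windows shared and the 27 with less had nearly the same median log2 ratio of WT replicate 2 to the Hes1KO mean, 4.39 and 4.37.

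The H2B genes followed WT replicate 2 in most cases. H2bc8 stood at 13.9, 9.68 and 12.5 CPM in the Hes1KO libraries, 203 in WT replicate 2 and 11.0 in WT replicate 3. H2bc15 stood at 1.29, 1.79 and 3.69 CPM, then 164.8 and 1.49. Of the 16 tested H2B genes, 13 were at least 4-fold higher in WT replicate 2 than in each other library. Their log2 fold changes in the fit were large and imprecise, -3.16 (SE 1.01) for H2bc8 and -5.20 (SE 1.58) for H2bc15, and neither passed (edgeR, Benjamini-Hochberg adjusted p = 0.0803 and 0.0729).

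H2bc22 and H2bc4 were the H2B genes that fell. H2bc22 stood at 1.47, 1.79 and 1.26 CPM in the Hes1KO libraries, 11.7 in WT replicate 2 and 4.46 in WT replicate 3, and fell by 2.43 in log2 units (SE 0.48; edgeR, Benjamini-Hochberg adjusted p = 0.0355). H2bc4 stood at 21.9, 21.9 and 17.9 CPM, then 94.8 and 37.9, and fell by 1.69 (SE 0.39; edgeR, Benjamini-Hochberg adjusted p = 0.0444). On the TMM scale both WT libraries were above every Hes1KO library in each gene. By library size alone this still held for H2bc22 (1.98 CPM in WT replicate 3 against at most 1.89), but H2bc4 in WT replicate 3, at 16.9 CPM, was below the Hes1KO libraries (22.1 to 27.7). With WT replicate 1 included neither passed (edgeR, Benjamini-Hochberg adjusted p = 0.321 and 0.314). These genes and H2bc21, H2bc23 and H2bc6 are the 5 replication-dependent genes whose RefSeq span exceeds 1000 bases (14079 for H2bc22 and 8282 for H2bc4); their median log2 ratio of WT replicate 2 to the Hes1KO mean was 2.96, against 4.54 for the 54 tested genes with shorter spans. H2bc21, named after its values were seen, stood at 13.99, 13.1 and 14.2 CPM in the Hes1KO libraries, 5.92 in WT replicate 2 and 16.5 in WT replicate 3; by library size alone it was at 8.09 and 7.35 CPM in the WT libraries, below every Hes1KO library.

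The replication-dependent H3 genes stood out most in WT replicate 2. All 11 tested members were at least 4-fold higher there than in each other library, with log2 ratios to the Hes1KO mean of 4.57 to 6.17 and a median of 5.32. The family summed to 13.99, 14.4 and 32.1 CPM in the Hes1KO libraries, 874 in WT replicate 2 and 11.5 in WT replicate 3, a 43.4-fold excess of WT replicate 2 over the Hes1KO mean. H3c7, whose stem-loop is printed above, stood at 1.43, 0.807 and 3.77 CPM in the Hes1KO libraries, 145 in WT replicate 2 and 0.743 in WT replicate 3. H3c2 stood at 0.501, 0.628 and 3.14 CPM, then 87.6 and 0.186, a level that rested on 1 count in WT replicate 3. Both were named after their values were seen, and neither passed in the fit.

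The H4 genes lay between the H2A and H3 families. H4c4 stood at 2.40, 2.78 and 7.54 CPM in the Hes1KO libraries, 149 in WT replicate 2 and 2.23 in WT replicate 3, with a log2 fold change of -4.16 (SE 1.44, edgeR, Benjamini-Hochberg adjusted p = 0.0933). Of the 12 H4 genes, 10 were at least 4-fold higher in WT replicate 2 than in each other library, and the family summed to 646 CPM there against 38.0, 40.5 and 64.2 in the Hes1KO libraries and 28.2 in WT replicate 3. H4c9, named after its values were seen, did not follow: it stood at 16.6, 17.3 and 15.5 CPM in the Hes1KO libraries, 12.5 in WT replicate 2 and 11.3 in WT replicate 3. On the TMM scale its narrow range of levels set it apart from the 11 other H4 genes. By library size alone H4c9 stood at 18.2 to 20.9 CPM in the Hes1KO libraries, 17.0 in WT replicate 2 and 5.04 in WT replicate 3.

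How the groups overlapped sums up the class. The Hes1KO libraries lay above both WT libraries for 3 of the 60 replication-dependent genes (31.2% of all genes tested did so), namely H2ac23, H2ac24 and H4c9, and below both for 6 (24.5%), namely H2ac21, H2ac19, H2ac8, H2bc22, H2bc4 and H1f2. By library size alone these orders held for 4 genes (H2bc21 joined; 35.1% of all genes tested) and 1 gene (H2bc22; 7.54%). On the TMM scale the Hes1KO libraries lay between a high WT replicate 2 and a low WT replicate 3 for 32 of the 60 (7.37% of all genes). For 1 they lay between with WT replicate 3 high (8.31%), and for 18 the groups overlapped otherwise (28.6%). By library size alone the Hes1KO libraries lay between a high WT replicate 2 and a low WT replicate 3 in each of these 18 genes too. H2bc8, for example, then stood at 10.2 to 17.6 CPM in the Hes1KO libraries, 277.7 in WT replicate 2 and 4.87 in WT replicate 3. A set of 6 genes chosen after their values were seen (H2ac23, H2ac24, H4c9, H2bc21, H1f2 and H2bc4) held 35.4 to 56.7% of the class's counts in the Hes1KO libraries and 56.5% in WT replicate 3, but 8.88% in WT replicate 2.

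**Figure D4:**
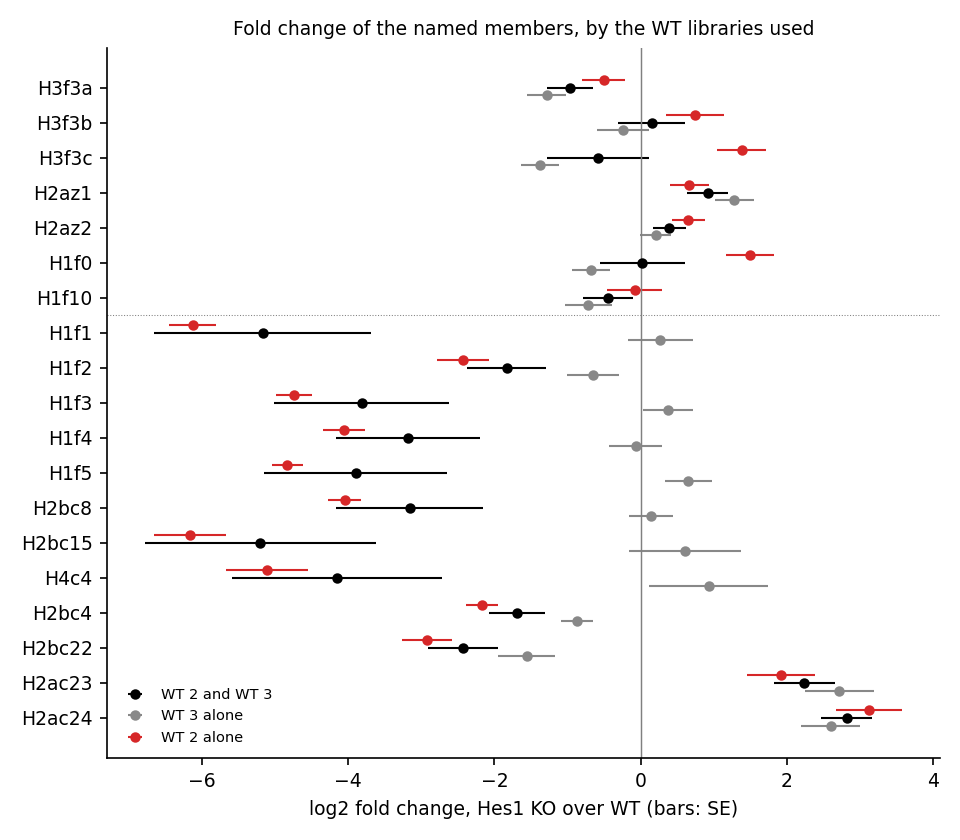
Log2 fold changes of Hes1KO over WT with their SE for the named histone genes, with both WT libraries (black), WT replicate 3 alone (grey) and WT replicate 2 alone (red); replacement histones are above the dotted line. For H1f1 the 3 values are -5.17, 0.27 and -6.13, whereas H2ac23 and H2ac24 lie above 0 and H2bc22 and H2bc4 below 0 in all 3.

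The Hes1KO libraries differed among themselves in the same genes. Hes1KO replicate 3 was the highest of the 3 for 46 of the 60 replication-dependent genes (76.7%, against 24.3% of all genes tested), and for 2 of 7 replacement histones. The median replication-dependent gene was 1.62 times as high in replicate 3 as in replicate 2, and 1.72 times as high as in replicate 1, while the median of all genes was within 1% of equal (1.00 and 0.990). With library size alone, replicate 3 was the highest for 48 of the 60, against 29.1% of all genes tested. RNAs that normally carry no poly(A) tail were also higher in that library, with values given below, and erythroid markers were also highest in Hes1KO replicate 3 within the group, at 2514 CPM against 37.8 and 95.1.

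Among the replacement histones, H3f3a, H3f3b and H3f3c carry H3.3 symbols. H3f3b stood at 882, 1114 and 810 CPM in the Hes1KO libraries, 573 in WT replicate 2 and 1110 in WT replicate 3, and took 64.0 to 70.1% of replacement counts in these 5 libraries. In WT replicate 1 its 103 counts were worth 1557 CPM (95% Wilson interval 1284 to 1887, on library size alone). Its log2 fold change of 0.15 (SE 0.46) turned below 0 with upper-quartile scaling (-0.05). By library size alone its Hes1KO libraries (1003 to 1174 CPM) lay above WT replicates 2 and 3 (782 and 493), but on the TMM scale the groups overlapped. H3f3a stood at 99.1, 134 and 91.1 CPM in the Hes1KO libraries, 158 in WT replicate 2 and 265 in WT replicate 3, below both WT libraries in every Hes1KO library on this scale but not by library size alone (118 CPM in WT replicate 3 against 113 to 141), with a log2 fold change of -0.97 (SE 0.31) that did not pass (edgeR, Benjamini-Hochberg adjusted p = 0.0808). H3f3c stood at 34.6, 50.2 and 35.0 CPM, then 15.8 and 104, so that the WT libraries lay on either side of the Hes1KO group (by library size alone WT replicate 3, at 46.3 CPM, lay inside it); its log2 fold change of -0.59 (SE 0.70) turned to 0.46 with library size alone.

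H2az1 and H2az2 encode H2A.Z, a variant placed at promoters and enhancers. H2az1 stood at 99.5, 89.1 and 73.1 CPM in the Hes1KO libraries, 56.2 in WT replicate 2 and 36.0 in WT replicate 3. H2az2 stood at 81.9, 95.02 and 95.3 CPM, then 59.0 and 78.9. Both were above both WT libraries in every Hes1KO library, also by library size alone, but their log2 fold changes of 0.92 (SE 0.28) and 0.39 (SE 0.22) did not pass (edgeR, Benjamini-Hochberg adjusted p = 0.0720 and 0.231). Of the linker histones made outside S phase, H1f0 stood at 76.4, 103 and 71.2 CPM in the Hes1KO libraries, 30.4 in WT replicate 2 and 134.5 in WT replicate 3, and H1f10 at 2.90, 3.54 and 3.69 CPM, then 3.66 and 5.57. The direction of these 2 genes was not stable: the log2 fold change of H1f0, 0.02 (SE 0.58), turned to -0.18 with upper-quartile scaling, and that of H1f10, -0.45 (SE 0.34), to 0.10 with library size alone. In WT replicate 1, H2az1 had 1 count and the other replacement histones except H3f3b had 0, which allows up to 45.3 CPM each at 3 counts.

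Other genes of histone supply were read for comparison from lists chosen with earlier results of these data known. The 35 S phase genes, most of which make the replication machinery, summed to 5166, 3808 and 4972 CPM in the Hes1KO libraries, 3784 in WT replicate 2 and 2271 in WT replicate 3, so WT replicate 2 was 0.814 times the Hes1KO mean. Of these 35 genes 7 rose and 0 fell (7.5% and 8.04% of all genes tested did), with a median log2 fold change of 0.76. Gins2, a subunit of the replicative helicase, rose by 1.59 (SE 0.25; edgeR, Benjamini-Hochberg adjusted p = 0.0301), from 12.5 and 8.73 CPM in the WT libraries to 33.5, 31.0 and 31.8. By library size alone, the S phase sum was 5166 CPM in WT replicate 2, inside the Hes1KO range of 4013 to 6521, and 1010 in WT replicate 3. The replication-dependent median lay below 0 with both WT libraries and, as given above, above 0 with WT replicate 3 as the only one.

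The list of factors for histone gene transcription and the 3′ end of histone mRNAs also held other genes, such as uridyl transferases, cyclins and E2f1. Slbp, E2f1, Ccne1 and Ccne2 stood in the S phase list too. The list summed to 1732 to 2062 CPM in the Hes1KO libraries, 1947 in WT replicate 2 and 1873 in WT replicate 3. By library size alone the sums were 1825 to 2603, 2658 and 833 CPM. Of 28 tested, 2 rose (Snrpd3 and Snrpe, Sm proteins of the spliceosomal particles) and 2 fell (Tut4 and Tut7, uridyl transferases), a share near the 15.5% of all genes tested. Tut4 fell by 1.88 in log2 units (SE 0.31, edgeR, Benjamini-Hochberg adjusted p = 0.0302), from 278 and 168.5 CPM in WT replicates 2 and 3 to 65.6, 45.9 and 70.8. By library size alone Tut4 in WT replicate 3, at 74.9 CPM, lay inside the Hes1KO range of 48.4 to 87.7. Slbp, named after its values were seen, stood at 161, 121 and 154 CPM in the Hes1KO libraries, 97.8 in WT replicate 2 and 72.4 in WT replicate 3, and did not pass (edgeR, Benjamini-Hochberg adjusted p = 0.0830). Slbp was thus not high in WT replicate 2, but the list was mixed. Npat and Hinfp, also named after their values were seen, were highest there. Npat stood at 38.2, 23.35 and 32.9 CPM in the Hes1KO libraries, 102.7 in WT replicate 2 and 34.4 in WT replicate 3. Hinfp stood at 34.25, 31.3 and 34.2 CPM, then 58.5 and 31.2. Neither passed (edgeR, Benjamini-Hochberg adjusted p = 0.135 and 0.312).

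Of 26 chaperones and exchange factors, which carry histones to and from DNA, 3 rose and 1 fell, again a share near the 15.5% of all genes tested. Asf1b, a chaperone of H3 and H4 in replication, rose by 1.46 (SE 0.20; edgeR, Benjamini-Hochberg adjusted p = 0.0297), from 33.7 and 39.6 CPM in the WT libraries to 103, 95.2 and 105. Hat1, which acetylates new H4, rose by 1.68, and Znhit1, of the complex that loads H2A.Z, rose by 1.97. Ubn2, of a complex that deposits H3.3, fell by 1.16. Of the 6 tested histone genes outside the rule, 0 rose and H2bu2, an H2B gene, fell by 2.21 (SE 0.35; edgeR, Benjamini-Hochberg adjusted p = 0.0301). H4f16, another of these 6, named after its values were seen, stood at 1.18, 0.807 and 2.40 CPM in the Hes1KO libraries, 23.7 in WT replicate 2 and 1.49 in WT replicate 3, as the clustered genes did.

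RNAs that have no poly(A) tail in their usual form were counted beside the histones, since replication-dependent histone mRNAs share that property. The 20 such RNAs in the table summed to 34.9, 76.4 and 391.6 CPM in the Hes1KO libraries, 4307 in WT replicate 2 and 141.9 in WT replicate 3, a 25.7-fold excess of WT replicate 2 over the Hes1KO mean. Rn7sk, which holds a transcription elongation factor inactive, stood at 9.31, 27.1 and 171.6 CPM in the Hes1KO libraries, 2210 in WT replicate 2 and 38.1 in WT replicate 3. Rpph1, the RNA of ribonuclease P, stood at 3.51, 7.31 and 68.8 CPM, then 1437 and 16.9. Both RNAs were highest in WT replicate 2 and, among the Hes1KO libraries, in replicate 3, the order also seen for most replication-dependent histone genes. They made up most of the sum of the 20 in WT replicate 2. Some others had a ratio of WT replicate 2 to the Hes1KO mean near 1, such as Snora73a (1.08) and Rnu7 (0.935). Of the 20, 9 were at least 4-fold higher in WT replicate 2 than in each other library (3.77% of all genes tested). For 17 of the 20 Hes1KO replicate 3 was the highest of its group (24.3% of all genes tested). WT replicate 2 was the highest library for 14 of the 20 (27.7% of all genes tested). Rnu11, a small nuclear RNA, and Vaultrc5, a vault RNA, were lower in both WT libraries than in every Hes1KO library. Rnu11 stood at 4.44, 3.9 and 4.56 CPM in the Hes1KO libraries, 0.378 in WT replicate 2 and 2.04 in WT replicate 3. None of the 20 passed the test in edgeR (15.5% of all genes tested did), and their median log2 fold change was -2.18. An unadjusted p under 0.05 was found for 6 of the 20 and for 6441 of all 16190 genes tested. The part of RNA without a tail in the histone values was not tested.

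**Figure D5:**
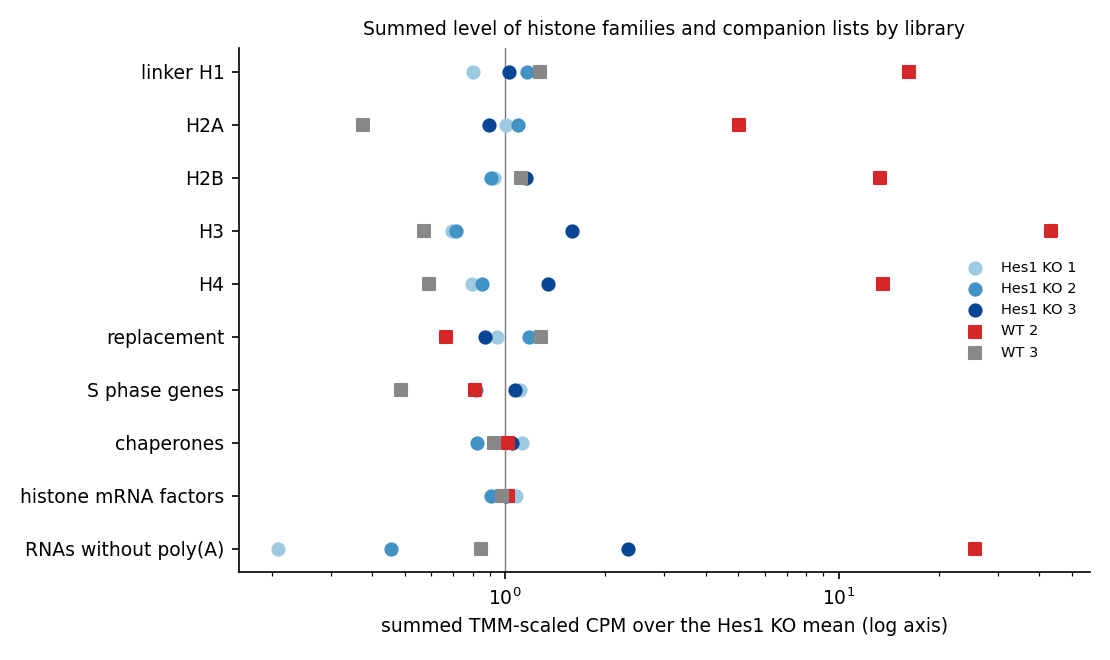
Summed TMM-scaled CPM of each histone family and companion list, divided by the mean of the 3 Hes1KO libraries, on a log axis, with 1 marker for each of 5 libraries. WT replicate 2 lies 5.02 to 43.4 times above that mean for the 5 replication-dependent families and 25.7 times above for RNAs without poly(A), but at 0.665 for replacement histones and 0.814 for S phase genes. Rn7sk and Rpph1 make up most of the sum of RNAs without poly(A) in WT replicate 2.

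Markers of blood cells also differed between the libraries. The 6 B cell markers summed to 542, 644 and 990 CPM in the Hes1KO libraries, 3437 in WT replicate 2 and 4691 in WT replicate 3. Of these markers 2, Ebf1 and Pax5, fell (8.04% of all genes tested did). The 5 macrophage markers summed to 6717 to 17880 CPM in the Hes1KO libraries, 1265 in WT replicate 2 and 148 in WT replicate 3. Of these 5 markers 3 rose (7.5% of all genes tested did). Neutrophil markers stood at 7154 CPM in WT replicate 2 and 575 in WT replicate 3, and in WT replicate 2 the erythroid markers stood at 83.4 CPM, with Hba-a1 and Hba-a2 at 0 counts. In WT replicate 2, Ebf1 alone gave 2293 CPM of that sum. Of the 6 B cell markers, 4 lay above every Hes1KO library in WT replicate 2 (Cd79a and Vpreb1 did not) and 6 in WT replicate 3. Both WT libraries lay above every Hes1KO library for 24.5% of all genes tested. By library size alone Cd79a in WT replicate 2 also lay above, at 166 CPM against at most 158. The part of cell makeup in the histone values was not tested.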

How the data were processed

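Counts per gene were deposited by the authors as whole numbers from polyadenylated RNA of 6 libraries. The table's name gives featureCounts, and the submitters' processing notes name GRCm39, edgeR and limma. Aligner, annotation, strand setting, versions and the treatment of reads with several matches: not given in the sources used here. Histone members and all gene lists were chosen with earlier results of these data known. The deposited counts went unchanged into edgeR 4.0.16 under R 4.3.3: filterByExpr, TMM scaling, quasi-likelihood test with the legacy option off, Benjamini-Hochberg adjustment over all genes tested (16190 with 5 libraries, 14756 with 6) and a threshold of 0.05. Standard errors are approximate, taken from the F statistic. TMM factors ran from 0.445 (WT replicate 3) to 1.37 (WT replicate 2). One count was worth 0.0452 to 0.172 CPM, and 15.1 CPM in WT replicate 1. Levels are not per length. Counts set between genes, as in the class shares, the most counted genes and the marker sums, therefore depend on gene length too.

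Named were Hes1, tested replacement histones, the 8 replication-dependent genes with the highest mean CPM, all that passed, up to 4 passing members of each companion list (or the 2 smallest p), the 2 most abundant markers and RNAs without poly(A) of at least 1 CPM; the text prints the most informative of these. Intervals are Wilson 95% (scipy 1.17.1). Stem-loops and shared windows came from GENCODE M21 transcripts, promoters and spans from RefSeq (GRCm38.p6) by symbol; 63 of 64 replication-dependent genes and 8 of 8 replacement histones had a span. The scripts were tested on simulated data. Alternatives were DESeq2 1.42.0, limma-voom 3.58.1, other scalings and filters, the legacy dispersion, a replicate block, and leaving out each library.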

Additional observations from a re-analysis of the deposited data

How the results depend on the processing

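The 4 histone genes that passed with 5 libraries became 46 with DESeq2, 2 with limma-voom, and 0 under library size alone, a replicate block or all 6 libraries; leaving out 1 library gave 0 (any Hes1KO library) to 63 (WT replicate 3). RLE or upper-quartile scaling and a filter of 1 CPM kept all 4, and the legacy dispersion and no filter kept 3. The share of all genes tested that passed moved too. It was 15.5% in the main fit, 30.9% with DESeq2, 8.89% with limma-voom, 10.6% with the legacy dispersion and 6.92% with no filter. It was 0% with library size alone, the replicate block, all 6 libraries or any Hes1KO library left out. With 6 libraries, 0 became 9 with DESeq2 and 0 to 4 without 1 library. Among companion genes 21 calls became 51 with DESeq2, 13 with the legacy dispersion, 0 with library size alone, the replicate block or all 6 libraries, and 0 to 56 without 1 library. The replication-dependent median of -3.38 ran from -4.17 to 0.70 without 1 library, above 0 only without WT replicate 2, and from -3.60 to -1.69 otherwise. The replacement median of 0.02 was 0.78 with library size alone and -0.68 to 0.67 without 1 library; the median of all genes moved from 0.02 to 0.44 with library size alone and to -0.19 with upper-quartile scaling.

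Without H1f1 and H3f3b, the log2 class ratio was -0.55, -0.63 and -0.14 in the Hes1KO libraries, 3.58 in WT replicate 2 and -1.30 in WT replicate 3; in WT replicate 1 it reversed to 4.25, on 1 replacement count. Without linker histones it was -2.50, -2.75, -2.07, 1.79 and -3.33 in the same 5 libraries. The medians of -2.22 (Hes1KO) and -2.45 (WT) ran from -2.29 to -2.00 and from -2.60 to -0.10 without 1 library.

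Of 33 single genes 23 kept their direction in every alternative run. H3f3c reversed with library size alone (0.46), limma-voom (0.043), the replicate block (0.044) and without 1 library (-1.38 to 1.38); H1f10 with library size alone (0.10); H3f3b with upper-quartile scaling (-0.051) and without 1 library (-0.24 to 0.74); and H1f0 with DESeq2 (-0.043), RLE (-0.044), the 1 CPM filter (-0.052), upper-quartile scaling (-0.18) and without 1 library (-0.68 to 1.499). Without WT replicate 2 the remaining reversals were H1f1 (-6.13 to 0.27 over the libraries left out), H1f3 (-4.75 to 0.38), H1f5 (-4.83 to 0.65), H2bc8 (-4.05 to 0.14), H2bc15 (-6.16 to 0.61) and H4c4 (-5.11 to 0.93). The cause of these changes was not tested, beyond the smaller number of libraries in some fits. Whether the replicate numbers pair the libraries was not settled. Deviations from the group means correlated at 0.15, 0.0070 and 0.24 for numbers 1, 2 and 3 over 14756 genes. Between unlike numbers the correlations ran from -0.20 to 0.033. Leaving out H2ax or pseudogenes gave no value, since no row matched them. In WT replicate 1, 52 of 64 replication-dependent genes had 0 counts and 3 counts are worth 45.3 CPM, so most levels seen elsewhere were not detectable there.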
